A study of Danio rerio with 4 samples.

Results

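The genes described here encode the D-type, A-type and B-type cyclins of the zebrafish cell cycle. They were found by gene symbol among the 32057 Ensembl identifiers of the deposited expression table, which held all 9 members sought: 4 D-type genes, 2 A-type genes and 3 B-type genes. Both copies of the cyclin D2 gene carry the single symbol ccnd2 in the naming table used here, so they are told apart by identifier and not by copy letter. Expression was measured by poly-A selected RNA sequencing of whole zebrafish embryos, in 4 libraries. The 2 libraries of quadruple mutants came from embryos homozygous mutant for mdm2, puma, noxa and p21. The 2 control libraries came from siblings of the same batch that were likewise homozygous mutant for puma, noxa and p21 but were mdm2+/- or mdm2+/+. All 4 libraries therefore lack p21, an inhibitor of cyclin-dependent kinases, and the comparison asked how cyclin transcripts differ when mdm2 is lost on that background. Sample titles describe mutant embryos as abnormal and sibling embryos as normal, and appearance and genotype cannot be told apart. The titles place collection at 18 hours post-fertilization while the tissue label says 30 hours. The number of embryos in a library, and the share of controls with each mdm2 genotype, are not given in the sources used here.

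Cyclins are the regulatory subunits of cyclin-dependent kinases, and each class acts in its own part of the cycle. D-type cyclins pair with Cdk4 and Cdk6 in G1, respond to growth signals and start the phosphorylation of the retinoblastoma protein. Cyclin A pairs with Cdk2 in S phase and with Cdk1 in G2, and B-type cyclins pair with Cdk1 to drive entry into mitosis. Transcripts of cyclins A and B accumulate from S phase to mitosis in dividing cells, whereas those of D-type cyclins follow growth signals more than cell cycle position. Mdm2 restrains p53, which halts the cycle largely through p21 where p21 is present.

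Values were TPM, transcripts per 1000000 after correction for transcript length, so levels of different genes can be compared within a library. TPM is scaled to the same total in every library and keeps no record of sequencing depth, so counting error is unknown. Markers of neural tissue, muscle, endothelium, epidermis, notochord and hatching gland all reached 1 TPM in each library. The exceptions among the tissue markers were the endoderm gene sox17 (0.07 to 0.15 TPM), the globin gene hbae1.1, the yolk layer gene mxtx2 and 5 of 7 germ cell genes. Differences were tested with limma on log2(TPM + 1) across the 16172 genes that reached 1 TPM in at least 2 libraries. Log2 changes are mutant minus control on that scale, and those of low genes are understated by the added 1. Percentages of the control level are ratios of mean TPM, without the added 1. All tested genes together had a median log2 change of -0.10.

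Of the 9 cyclin genes, 6 had less transcript in the quadruple mutants and 0 had more, with 7 tested in limma at an adjusted p under 0.05; at an unadjusted p under 0.05 the counts were also 6 and 0. The genes that fell were ccnd1, 1 copy of ccnd2, ccna2, ccnb1, ccnb2 and ccnb3. The other ccnd2 copy was tested and did not pass, and ccnd3 and ccna1 were too low to be tested. Among all tested genes 37.7% were called lower and 28.0% higher, or 6091 and 4522 genes. That balance depended on scaling, with 5173 lower and 5450 higher under median ratio scaling. The median log2 change of the 7 tested cyclins was -0.94. Both mutant libraries lay below both controls for all 7, as did 47.5% of all tested genes. The class sums differed in size of change: the summed TPM of the mutants was 58.6% of control for D-type cyclins, 47.1% for B-type cyclins and 21.1% for A-type cyclins. Each sum was mostly 1 gene (ccnd1, ccnb1 or ccna2), and log2 changes within the B class ran from -1.87 to -0.94. In a whole-embryo sample, fewer cycling cells and less RNA per cell cannot be told apart.

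**Figure D1:**
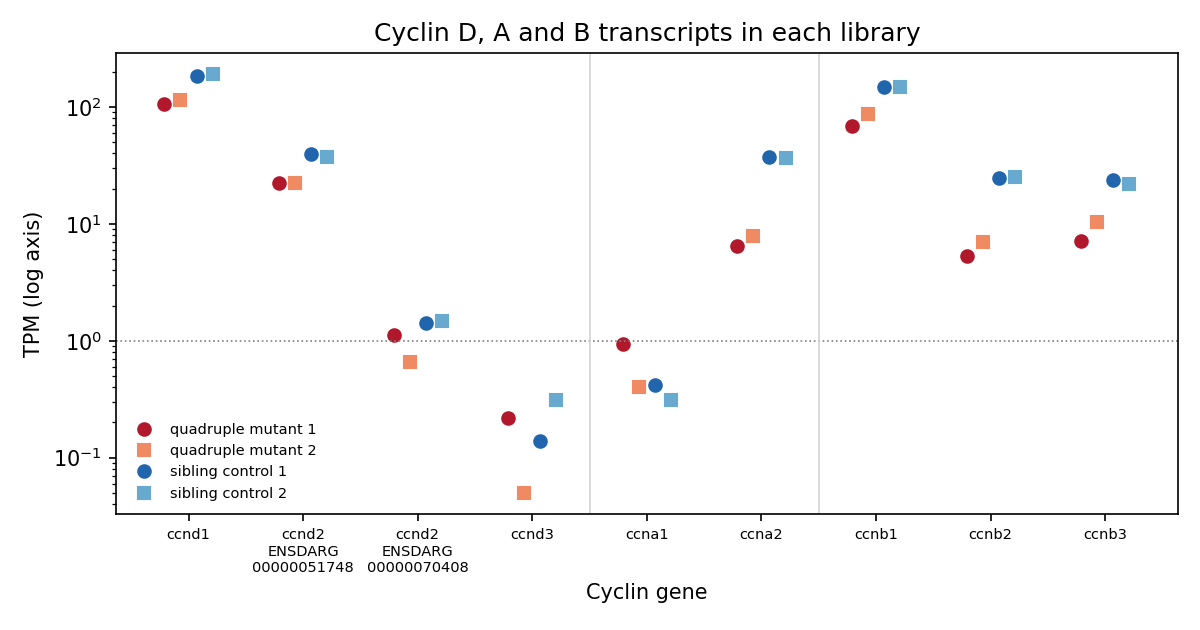
Level of each cyclin gene in each library, in TPM on a log axis, with circles and squares for replicates 1 and 2 and the dotted line at 1 TPM. For ccnd1, both ccnd2 copies, ccna2, ccnb1, ccnb2 and ccnb3, both mutants sit below both controls. Levels of ccnd3 and ccna1 stay below 1 TPM, with overlapping genotypes.

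Cyclin D1 was the most abundant cyclin of the 3 classes in both genotypes. Transcripts of ccnd1 (ENSDARG00000101637) stood at 107 and 114 TPM in the mutants and at 185 and 192 TPM in the controls. Both mutants were low and the genotypes did not overlap. The log2 change was -0.76 (SE 0.058, 95% interval -0.91 to -0.62, limma adjusted p = 0.000132), which leaves 58.7% of the control level.

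Cyclin D2 is a second D-type partner of the same kinases. The more abundant copy of ccnd2 (ENSDARG00000051748) was listed at 22.3 TPM in both mutants and at 39.6 and 37.1 TPM in the controls. The log2 change was -0.76 (SE 0.072, 95% interval -0.93 to -0.58, adjusted p = 0.000292), with no overlap between genotypes. The other copy (ENSDARG00000070408) was low everywhere, at 1.13 and 0.66 TPM in the mutants and 1.43 and 1.48 TPM in the controls. Its log2 change of -0.38 (SE 0.162, 95% interval -0.78 to 0.014) did not pass, with an adjusted p of 0.0805. That value depended on the mutant library kept: it was -0.56 without mutant replicate 1 and -0.21 without mutant replicate 2. Without mutant replicate 1 the mutant value left was under 1 TPM, so this copy entered that fit only through the controls. There it could only have been called lower.

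The third D-type gene, ccnd3 (ENSDARG00000027391), was listed at 0.22 and 0.05 TPM in the mutants and 0.14 and 0.31 TPM in the controls. It was below the level tested and its genotypes overlapped. The make-up of the D class was nearly the same in the genotypes. ccnd1 held 81.9% and 83.2% of the class sum in the mutants and 81.8% and 83.1% in the controls. The ratio of ccnd1 to ccnd2 (ENSDARG00000051748) was 4.80 and 5.11 in the mutants and 4.67 and 5.17 in the controls, so these overlapped.

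Cyclin A2, the A-type cyclin of dividing somatic cells, showed the largest fall among the tested members. Transcripts of ccna2 (ENSDARG00000011094) stood at 37.3 and 36.6 TPM in the controls but reached 6.43 and 7.94 TPM in the mutants. This left 19.5% of the control level, and the log2 change was -2.22 (SE 0.110, 95% interval -2.49 to -1.95, adjusted p = 3.1e-05). Of all tested genes, 0.934% had a lower change than ccna2. Cyclin A1, which in mice serves male meiosis, did not share this pattern. ccna1 (ENSDARG00000043236) was listed at 0.94 and 0.40 TPM in the mutants and at 0.42 and 0.31 TPM in the controls. All its values were under 1 TPM, the genotypes overlapped and it was not tested.

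**Figure D2:**
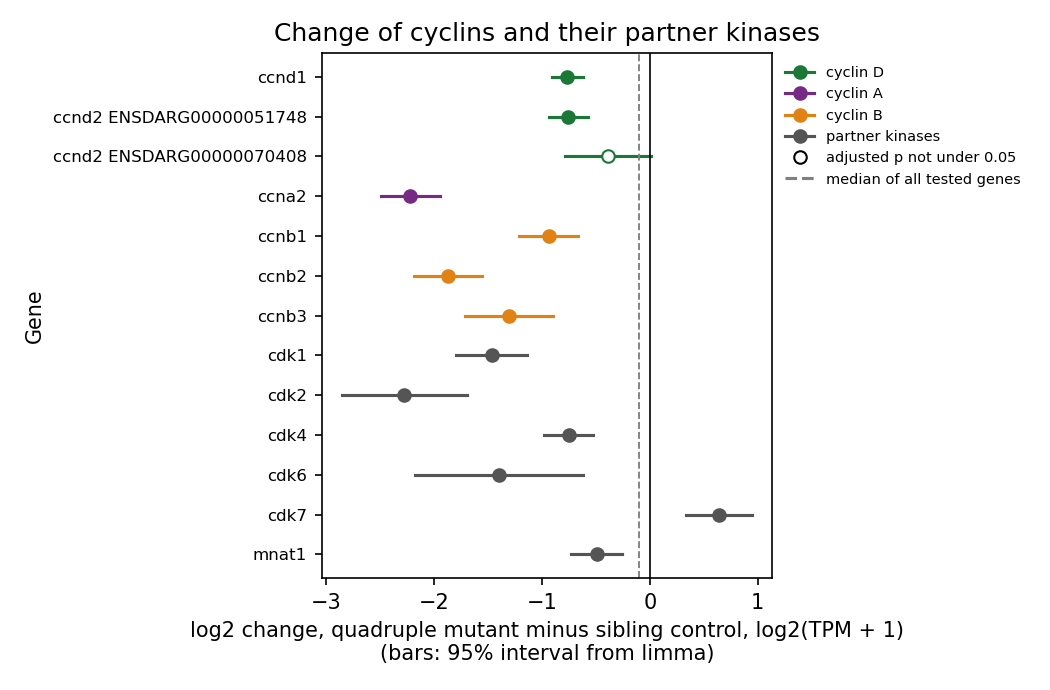
Log2 change of each tested cyclin, of the partner kinases and of mnat1, mutant minus control on the log2(TPM + 1) scale, with 95% limma intervals. The dashed line is the median of all tested genes. Among the cyclins the D-type genes lie nearest to that line, ccna2 and cdk2 lie farthest to the left at -2.22 and -2.28, and cdk7 alone lies to the right of 0.

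The B-type cyclins all fell, by unequal amounts. ccnb1 (ENSDARG00000051923) encodes cyclin B1, the main activator of Cdk1 at mitotic entry, and stood at 149 TPM in both controls against 68.6 and 87.2 TPM in the mutants. Its log2 change was -0.94 (SE 0.112, 95% interval -1.21 to -0.66, adjusted p = 0.000712), or 52.3% of the control level. The mutants lay apart from each other by 0.34 on the log2 scale, more than the controls did.

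ccnb2 (ENSDARG00000036180), the gene of the related cyclin B2, stood at 5.33 and 6.99 TPM in the mutants and at 24.8 and 25.4 TPM in the controls. The log2 change was -1.87 (SE 0.129, 95% interval -2.19 to -1.56, adjusted p = 9e-05), and the mean TPM was 24.6% of control. ccnb3 (ENSDARG00000034855) encodes cyclin B3, which in mice is needed for anaphase in oocyte meiosis. It stood at 7.17 and 10.4 TPM in the mutants and at 23.7 and 22.1 TPM in the controls. Its log2 change was -1.30 (SE 0.165, 95% interval -1.71 to -0.90, adjusted p = 0.000894). The genotypes did not overlap for either gene.

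The B class therefore changed in make-up. ccnb1 held 84.6% and 83.3% of the class sum in the mutants against 75.4% and 75.9% in the controls. ccnb2 held 6.57% and 6.68% against 12.6% and 12.9%. Within each library, ccnb1 exceeded ccnb2 by 12.9-fold and 12.5-fold in the mutants and by 6.01-fold and 5.88-fold in the controls. The ratio of ccnb1 to ccnb3 was 9.57 and 8.35 in the mutants and 6.28 and 6.76 in the controls. Neither ratio overlapped between genotypes, and an exact 2-sided permutation test gave p = 0.333 for each, the smallest that 2 libraries against 2 allow.

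**Figure D3:**
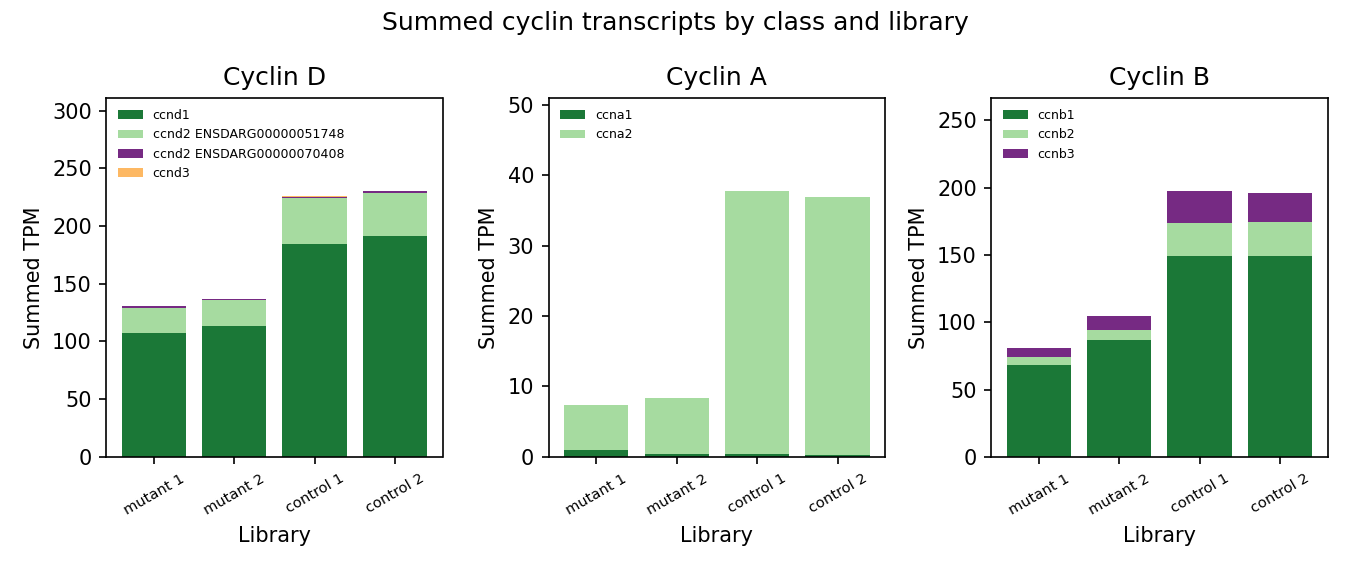
Summed TPM of the D-type, A-type and B-type cyclins in each library, stacked by gene, each panel with its own axis starting at 0. The mutants reach 131 and 137 TPM for cyclin D against 226 and 230 TPM in the controls, 7.37 and 8.34 TPM against 37.7 and 36.9 TPM for cyclin A, and 81.1 and 105 TPM against 198 and 196 TPM for cyclin B.

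The unequal falls moved the balance between classes inside each library. ccnd1 transcripts exceeded those of ccna2 by 16.6-fold and 14.3-fold in the mutants and by 4.95-fold and 5.24-fold in the controls. ccnb1 exceeded ccna2 by 10.7-fold and 11.0-fold in the mutants and by 3.99-fold and 4.07-fold in the controls. The ratio of ccnd1 to ccnb1 moved less, from 1.24 and 1.29 in the controls to 1.56 and 1.31 in the mutants. Each of these ratios gave an exact permutation p of 0.333. A ratio within a library shows unequal change and does not show which transcript moved. In all, 12 ratios were computed, chosen after the levels were seen, and for 9 of them the genotypes did not overlap. Many of the 12 share ccnb1 or ccna2, so they are not independent. The share without overlap among other gene pairs was not computed.

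The order of levels shifted in its middle. In both genotypes ccnd1 was highest, then ccnb1, then ccnd2 (ENSDARG00000051748). In the controls ccna2 came next at a mean of 36.9 TPM, with 1 of its values inside the range of that ccnd2 copy, and ahead of ccnb2 (25.1 TPM) and ccnb3 (22.9 TPM). In the mutants ccnb3 (8.81 TPM), ccna2 (7.19 TPM) and ccnb2 (6.16 TPM) followed, and neighbours in that run overlapped.

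**Figure D4:**
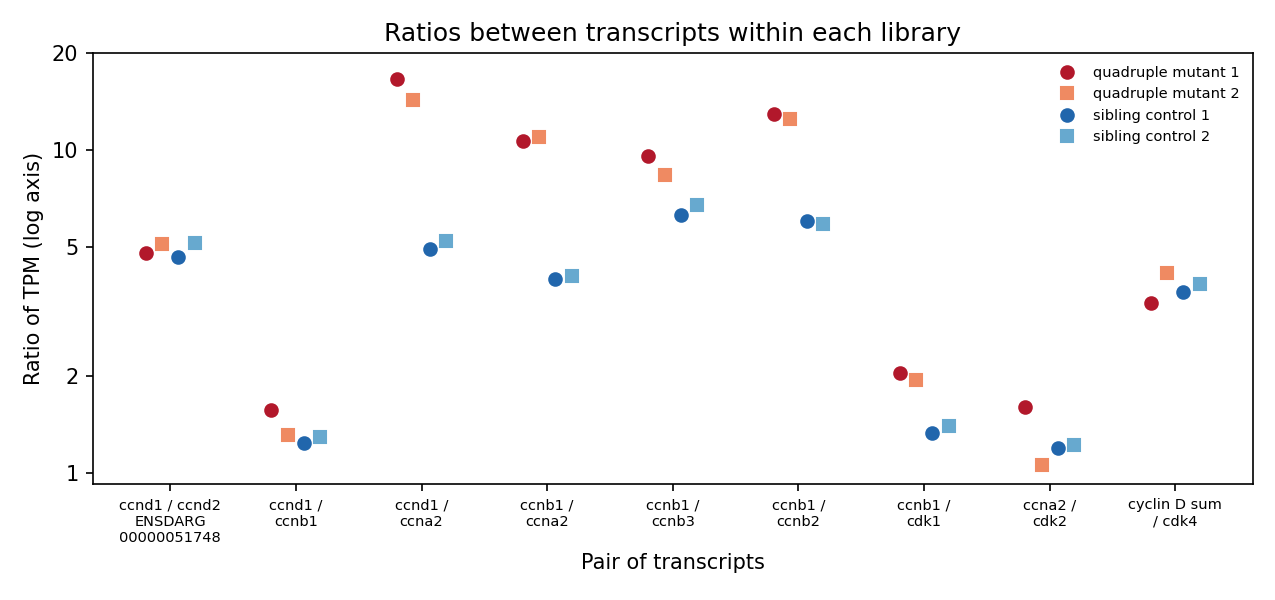
Ratio of TPM between pairs of transcripts within each library, on a log axis, with circles and squares for replicates 1 and 2. Ratios of ccnd1 or ccnb1 to ccna2 and of ccnb1 to ccnb2 lie higher in both mutants, whereas ccnd1 to ccnd2, ccna2 to cdk2 and cyclin D to cdk4 overlap between genotypes.

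The mutant libraries were not alike in the A-type and B-type genes that fell. Of the 6 cyclins that fell, 5 were higher in mutant library 2 than in mutant library 1, with a median log2 difference of 0.30 over the 6. The difference ran from 0.27 for ccna2 to 0.49 for ccnb3 in the A and B classes. It was 0.09 for ccnd1 and 0 for ccnd2 (ENSDARG00000051748). Among all genes called lower, 65.5% were higher in mutant library 2, with a median difference of 0.07. The controls differed by at most 0.10 on the log2 scale for any of the 6 cyclins. All 6 fell with either mutant library left out. The neural markers moved with the cyclins: all 4 of them fell, and their summed level was 561 and 579 TPM in the controls but 156 and 197 TPM in the mutants. Of the muscle markers all 4 fell too, from sums of 1094 and 1124 TPM to 748 and 707 TPM, whereas all 4 hatching gland markers rose. Among all tested genes 37.7% were called lower and 28.0% higher. The other marker lists were mixed: 2 fell and 1 rose for blood and for endoderm, and 1 fell and 2 rose for epidermis and for yolk layer. The yolk layer riser mxtx2 was under 1 TPM in both controls, so it entered the test only through the mutants. It could only have been called by rising. The endoderm faller foxa3 lost its call under median ratio scaling, under quantile normalization and without a variance trend, among other settings. Without control replicate 1 the epidermis faller tp63 lost its call, as did apob of the yolk layer with either control left out. For notochord and for endothelium 0 fell and 1 rose, and for germ cells 1 fell and 1 rose. The germ cell faller piwil1 was under 1 TPM in both mutants, so it entered the test only through the controls. Only a fall could have been called for piwil1. The part of these tissues in the cyclin differences was not tested.

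The kinases that cyclins activate were examined next, in a list of 7 genes that also held the assembly factor gene mnat1. Of the list, 6 genes were tested. Of these, 5 fell and 1 rose, where 37.7% of all tested genes were called lower and 28.0% higher. cdk4, the partner of D-type cyclins, stood at 62.1 and 59.8 TPM in the controls but reached 38.9 and 33.0 TPM in the mutants (log2 change -0.75, SE 0.093, adjusted p = 0.000795). The summed D-type cyclin level per unit of cdk4 was 3.35 and 4.15 in the mutants and 3.63 and 3.85 in the controls, which overlapped. cdk6, the other D-type partner, was low and scattered, at 0.73 and 2.18 TPM against 6.40 and 4.19 TPM (-1.40, SE 0.317, adjusted p = 0.00928).

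cdk2, the S phase partner of cyclin A, stood at 4.03 and 7.49 TPM in the mutants and at 31.3 and 30.0 TPM in the controls (log2 change -2.28, SE 0.235, adjusted p = 0.000398). The ratio of ccna2 to cdk2 was 1.60 and 1.06 in the mutants and 1.19 and 1.22 in the controls, with overlap. The mitotic kinase gene cdk1 stood at 33.6 and 45.0 TPM against 112 and 107 TPM (-1.47, SE 0.134, adjusted p = 0.000249). It fell by more than ccnb1, and the ratio of ccnb1 to cdk1 was 2.04 and 1.94 in the mutants against 1.33 and 1.40 in the controls (exact permutation p = 0.333).

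The kinase that activates Cdk1, Cdk2 and Cdk4 consists of Cdk7, cyclin H and the assembly factor Mnat1, and its parts did not move together. cdk7 rose from 25.4 and 23.4 TPM in the controls to 34.1 and 43.5 TPM in the mutants (log2 change 0.64, SE 0.124, adjusted p = 0.0051). mnat1 fell by 0.49 (SE 0.097, adjusted p = 0.00519). The cyclin H gene ccnh, named after its values were seen, fell by 0.87 (SE 0.109, adjusted p = 0.000855). The remaining gene of the list, cdk21, was listed at 0.19 and 0.28 TPM in the mutants and at 0.13 and 0 TPM in the controls, and was not tested.

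Cyclins outside the 3 classes went both ways. Of 18 tested genes, 10 fell, 2 rose and 6 did not pass, with a median log2 change of -0.26 and beside 37.7% lower and 28.0% higher among all tested genes. Only 8 were lower with either control left out, without a variance trend or after median ratio scaling, where ccnl1b and 1 copy of ccnt2 lost their calls. Those with the lowest p-values were ccng1, ccne2, ccnf and ccni. ccng1, a p53 target that the study chose, rose by 3.05. The other cyclin G gene, ccng2, named after its values were seen, fell (-1.45, SE 0.129). ccne2, the gene of a cyclin that activates Cdk2 at the start of S phase, fell by 2.42 (SE 0.10). Levels of ccne2 lay near those of ccna2 in both genotypes, at 5.97 and 7.0 TPM in the mutants and 37.7 and 40.0 TPM in the controls. The ratio of ccna2 to ccne2 was 1.08 and 1.13 in the mutants and 0.991 and 0.913 in the controls. ccnf, whose human product is a substrate receptor of a ubiquitin ligase, fell by 1.55 (SE 0.099). The atypical cyclin gene ccni fell by 1.26 (SE 0.108). A second riser was ccnl1 (ENSDARG00000055124; 0.74), named after its values were seen, whose product works with RNA processing kinases.

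Switches that set the activity of cyclin B with Cdk1 were followed in 6 tested genes, of which 3 fell, 1 rose and 2 did not pass (median -0.56). With so few genes these counts are near the 37.7% lower and 28.0% higher of all tested genes, and only the single genes are described. plk1, a kinase that promotes mitotic entry, fell from 160 and 157 TPM to 46.2 and 53.8 TPM (-1.65, SE 0.083). Its activating partner bora fell by 1.69 (SE 0.154), and cdc25b, a phosphatase that removes inhibitory phosphate from Cdk1, by 0.83 (SE 0.090). The riser was the phosphatase gene cdc25d (3.02, SE 0.135). Being under 1 TPM in both controls, cdc25d entered the test only through the mutants and could only have been called by rising.

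Genes that control the destruction of cyclins A and B were followed in 20 tested genes of the anaphase-promoting complex, its activators, its enzymes and its inhibitor. Of these, 15 fell, 2 rose and 3 did not pass (median -0.87), against 37.7% lower and 28.0% higher among all tested genes. Under median ratio scaling 14 fell and 3 rose, and anapc11 lost its call. With either control left out anapc11 also lost its call, as did cdc27 without control replicate 1. Among those that fell was fbxo5, named after its values were seen, whose product Emi1 inhibits the complex (-2.28, SE 0.262). ube2c, the ubiquitin-conjugating enzyme of that complex, fell from 146 TPM in both controls to 56.4 and 64.7 TPM (-1.26, SE 0.078, adjusted p = 6.38e-05). The subunit genes anapc4 and anapc2 fell by 1.42 (SE 0.094) and 1.33 (SE 0.090). Against these, fzr1b, a copy of the activator that holds cyclins low in G1, stood at 2.68 and 3.12 TPM in the controls and rose to 15.2 and 13.1 TPM in the mutants (log2 change 1.96, SE 0.123, adjusted p = 6.8e-05). The other copy, fzr1 (ENSDARG00000015254), did not pass, at 55.6 and 56.8 TPM against 60.0 and 59.3 TPM (-0.08, SE 0.059). The subunit gene anapc13, also picked out on its values, rose as well (1.00, SE 0.080).

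Turnover genes of D-type cyclins went both ways, by at most 0.70 on the log2 scale. Of 11 tested genes, 5 fell, 2 rose and 4 did not pass (median -0.09, against -0.10 for all tested genes). These shares are near the 37.7% lower and 28.0% higher of all tested genes. The lowest p-values were those of ddb1 (-0.60, SE 0.066), an adaptor of the ligase that removes D-type cyclins, of the kinase gene copies gsk3bb (-0.70, SE 0.093) and gsk3a (ENSDARG00000015681; 0.42, SE 0.089), and of 1 copy of ambra1 (ENSDARG00000008322), the substrate receptor of that ligase. This ambra1 copy rose by 0.50 (SE 0.10), and the other (ENSDARG00000039878) did not pass (-0.09, SE 0.129). The other gsk3a copy (ENSDARG00000029501), named after its values were seen, fell (-0.46, SE 0.098), against the rise of the first. The call of this falling copy was lost without control replicate 1. The split of this list depended on processing, with 3 lower and 4 higher under median ratio scaling, 2 lower without control replicate 1 and 3 lower without control replicate 2.

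Among 24 genes of factors that bind cyclin promoters or act with them, 18 fell, 2 rose and 4 did not pass (median -0.74), beside 37.7% lower and 28.0% higher among all tested genes. The lowest p-values were those of mybl2 (ENSDARG00000032264; -2.17, SE 0.089), e2f8 (-2.14, SE 0.115), tfdp2 (-1.56, SE 0.087) and e2f2 (-1.79, SE 0.108). Mybl2 acts with the MuvB complex on genes of G2 and mitosis. Typical E2f proteins such as E2f2, but not E2f8, pair with Tfdp proteins on genes of S phase. foxm1, which activates cyclin B genes and was named after its values were seen, stood at 2.54 and 3.37 TPM against 15.0 and 13.4 TPM (-1.95, SE 0.140, adjusted p = 0.000105). Subunit genes of the CCAAT-binding factor NF-Y went both ways. Named after their values were seen, nfyc (-0.64, SE 0.056), nfyb (-0.17, SE 0.050) and 1 copy of nfya (ENSDARG00000001621, -0.69, SE 0.124) fell. The 2 risers of the list were nfybb (0.75, SE 0.164) and the other copy of nfya (ENSDARG00000042004, 0.19, SE 0.053). The call of this rising nfya copy was lost with either control left out, without a variance trend and under quantile normalization. nfyb lost its call with either control left out, without a variance trend and under median ratio scaling.

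**Figure D5:**
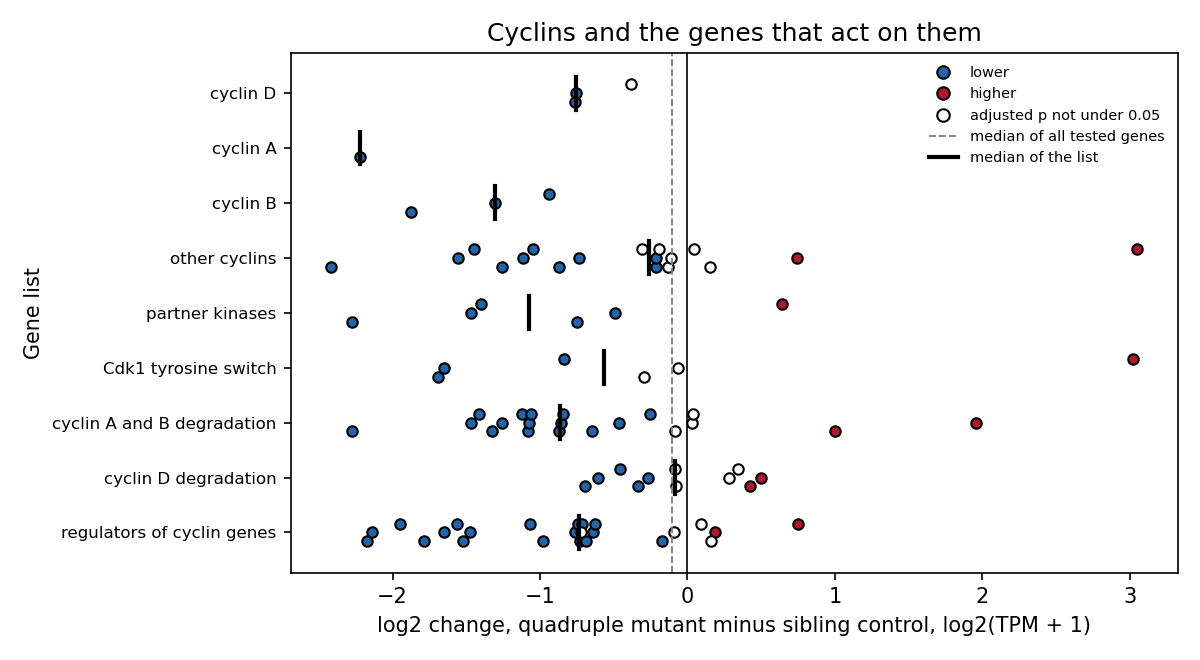
Log2 change of every tested gene in the cyclin classes and in lists of genes that work with them, mutant minus control on the log2(TPM + 1) scale, with blue for lower, red for higher and white for genes that did not pass. List medians (black bars) run from -2.22 for cyclin A, where only ccna2 was tested, to -0.09 for cyclin D degradation. The dashed line is the median of all tested genes, -0.10.

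Genes with the most similar pattern were sought for the most abundant member of each class, by the Euclidean distance between gene-centred log2(TPM + 1) values over the 4 libraries. For ccnd1 they were lap3 (distance 0.0258), polr1e (0.0265) and exosc5 (0.0314), with log2 changes from -0.79 to -0.75. For ccna2 they were trip13 (0.0349), pmp22a (0.0352) and plk4 (0.0421), with changes from -2.24 to -2.21. For ccnb1 they were hp1bp3 (0.0182), ppp1r14ab (0.0252) and hmgn7 (0.0276), with changes from -0.95 to -0.93. With 4 libraries in 2 genotypes, such a distance reflects little beyond the size of the change and the gap between the mutants.

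The labels do not state whether the libraries of a genotype came from different clutches. The spread behind the p-values is that between these samples and may be technical, and with 2 libraries a genotype the p-values lean on the variance that limma pools over genes.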

How the data were processed

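Whole zebrafish embryos were profiled in 2 quadruple mutant and 2 sibling control libraries, grouped and numbered from the sample titles. The deposited values were TPM, scaled by the authors to 1000000 per library. Per the submitters' processing notes, the build was GRCz11 and the tools were RSEM 1.3.3, STAR 2.7.3a, DESeq2 1.42.1 and HTSeq 0.12.3. Their roles, the annotation and the strand setting are not given in the sources used here. Because TPM keeps no depth, no count model, counting interval or detection floor was used, and reads shared by related copies could have been divided unevenly.

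A naming table gave symbols to 28988 identifiers. Symbols were matched exactly, then without regard to case, then without the copy letter; 5 of 144 list symbols had no match. Genes that reached 1 TPM in 2 or more libraries were fitted as log2(TPM + 1) with limma 3.58.1 in R 4.3.3 (variance trend, prior degrees of freedom 3.91, residual 2), with Benjamini-Hochberg adjustment over all tested genes and a threshold of 0.05. The test was run on simulated data in which far fewer genes changed than were called here. That run does not give the error rate of the test in these data. Ratios were tested with scipy 1.17.1 in Python 3.11.15.

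All cyclins and tested partner kinases are named, and up to 4 genes of lowest p in each other list; the 3 nearest profiles needed a mean of 5 TPM and no clone name. Members and lists were chosen with earlier results of these data known. Alternatives were 2 other pseudocounts, 2 other filters, 2 scalings, no variance trend, a replicate block and each library left out. No sequences are shown.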

Additional observations from a re-analysis of the deposited data

How the results depend on the processing

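The 6 cyclins that fell did so under each of the 12 alternatives, and no tested cyclin changed direction. With single libraries left out, the remaining library is taken to vary as the other genotype does. Without mutant replicate 1, ccnd2 (ENSDARG00000070408, -0.56) was called lower as well. In that fit it passed the filter only through the controls, so only a fall could have been called. Median ratio scaling moved the median change of all tested genes from -0.10 to 0.02, the changes of the 7 tested cyclins to between -2.09 and -0.31, and the class sum to 64.6% of control for cyclin D and 23.2% for cyclin A. With libraries left out in turn, class sums were 57.3% to 60.0% of control for cyclin D, 19.8% to 22.4% for cyclin A and 41.2% to 53.1% for cyclin B. With the replicate block, 6 cyclins were lower, with 6062 of all genes lower and 4457 higher, against 6091 and 4522 without it. Deviations of same-numbered libraries correlated at 0.0488 across genes, and no label pairs them. Without a filter, ccnd3 (-0.11, limma adjusted p = 0.478) and ccna1 (0.27, adjusted p = 0.287) did not pass. Depth is unknown, so the precision of genes near 1 TPM could not be judged.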
